A study of Mus musculus with 21 samples.

Results

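Apoe, 3 other apolipoprotein genes (Apoc1, Clu and Apod) and 4 receptor genes (Lrp1, Vldlr, Lrp8 and Sorl1) were followed by gene name through both expression tables of a study of mouse microglia, the resident macrophages of the brain. All 8 genes were among the 18079 genes kept from the table of uninjected mice, and 7 of them, all but Vldlr, were among the 13297 genes of the table of injected mice. RNA was read as QuantSeq 3′ tags, short reads from the 3′ ends of polyadenylated RNA, in 21 libraries of microglia isolated from brain. The uninjected table holds 4 libraries labelled female ApoE KO (KO, strain B6.129P2-Apoetm1Unc/J, in which Apoe was disrupted by gene targeting) and 7 labelled female WT (C57BL/6). The injected table holds 10 libraries labelled male ApoE KO of that same strain, 5 taken after rAPOE, an apolipoprotein E protein reconstituted in PBS, and 5 after PBS alone (phosphate-buffered saline), so its controls lack Apoe too. Mice were 12 to 18 weeks old, the injection went into the left hemisphere, and microglia were taken 16 h later, per the labels' protocols. Both hemispheres were collected, and the labels give neither the hemisphere nor the animal behind a library, so p-values measure only the spread between these libraries, which may be technical. Values are the deposited normalised counts, scaled within each table, so levels are not compared between the tables.

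Apolipoprotein E is the main carrier of cholesterol and phospholipid between cells of the brain. Astrocytes make most of it, and microglia raise its expression in aging and disease states. Once loaded with lipid, largely through the exporters Abca1 and Abcg1, the particle is bound by lipoprotein receptors at the cell surface. Of these, Lrp1 is a large endocytic receptor, while Vldlr and Lrp8 (the ApoE receptor 2) also bind reelin and signal through the adaptor Dab1. Sorl1 is an intracellular sorting receptor related to them that moves the amyloid precursor protein between the trans-Golgi network and endosomes. Clu encodes clusterin (apolipoprotein J), a chaperone carried on brain lipoproteins, Apoc1 a small apolipoprotein that inhibits lipoprotein uptake and lipolysis, and Apod a lipocalin that carries small lipophilic molecules.

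In GENCODE M21 for GRCm38, Apoe lies on the minus strand at chr7:19696109-19699188, with a last exon of 995 bp in which the 3′ tags are read, and Apoc1 lies on the same strand at chr7:19689481-19692660, with a gap of 3448 bp to Apoe. The other members are on other chromosomes, with Clu at chr14:65968483-65981547, Apod at chr16:31296192-31314808, Lrp1 at chr10:127538161-127621148 with 89 exons, Vldlr at chr19:27216484-27254231, Lrp8 at chr4:107802261-107876840 and Sorl1 at chr9:41964720-42124297. RefSeq promoter windows were found for 6 of the 8 members. The 250 bases before the gene start, whose place matches the annotated start of these 4 genes, are shown for 2 members that were lower in KO libraries (Apoe and Vldlr) and for the 2 that did not pass the test (Lrp1 and Sorl1), with matches to the motifs searched in capitals. The windows are from GRCm38.p6, at chr7:19699189-19699438 on the minus strand, chr19:27216234-27216483 on the plus strand, chr10:127621149-127621398 on the minus strand and chr9:42124298-42124547 on the minus strand, each printed 5′ to 3′ along its gene.
Apoe: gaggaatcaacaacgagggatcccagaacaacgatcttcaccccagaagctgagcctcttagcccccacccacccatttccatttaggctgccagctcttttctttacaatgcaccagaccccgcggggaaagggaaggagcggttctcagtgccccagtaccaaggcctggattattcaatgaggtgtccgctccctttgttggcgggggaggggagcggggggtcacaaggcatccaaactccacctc
Vldlr: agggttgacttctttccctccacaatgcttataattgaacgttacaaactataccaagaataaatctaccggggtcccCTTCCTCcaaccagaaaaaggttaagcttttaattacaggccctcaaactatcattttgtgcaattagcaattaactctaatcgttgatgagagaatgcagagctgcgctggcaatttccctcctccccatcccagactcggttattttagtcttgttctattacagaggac
Lrp1: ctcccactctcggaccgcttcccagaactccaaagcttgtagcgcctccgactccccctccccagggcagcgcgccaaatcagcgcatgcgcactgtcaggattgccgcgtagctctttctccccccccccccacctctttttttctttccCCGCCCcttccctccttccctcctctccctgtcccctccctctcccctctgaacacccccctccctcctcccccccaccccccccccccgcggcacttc
Sorl1: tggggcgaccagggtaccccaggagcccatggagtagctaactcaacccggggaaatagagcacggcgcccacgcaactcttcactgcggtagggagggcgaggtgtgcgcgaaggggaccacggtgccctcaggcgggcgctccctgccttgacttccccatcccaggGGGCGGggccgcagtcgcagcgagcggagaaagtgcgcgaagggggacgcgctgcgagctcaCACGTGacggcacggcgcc

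The windows differ in base composition. Sorl1 has 69.6% G and C with 26 CpG dinucleotides and Lrp1 67.2% with 13, against 57.2% with 8 for Apoe and 41.6% with 5 for Vldlr. Over all 32851 windows of this length the medians are 52.4% and 6. Both strands were searched for 6 motifs, and any 2 matches could overlap. Lrp1 and Sorl1 each hold a GC box (GGGCGG, found in 32.7% of all windows), Sorl1 also holds an E-box (CACGTG, 6.02%), and Vldlr holds a PU.1 site (GAGGAAG, 10.6%). The Apoe window holds none of them, and none of the 4 windows holds a nuclear receptor half-site (AGGTCA, 14.0%), a TATA box (TATAAA, 12.4%) or an AP-1 site (TGANTCA, 6.75%). A match is a string of letters and was not tested as a site.

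Depth and composition set how the members can be read. Recovered reads came to 4247865 to 4969287 per KO library, 2016972 to 3054976 per WT library, 857059 to 1119059 per rAPOE library and 704225 to 1347501 per PBS library. KO libraries nevertheless held reads of fewer genes (8117 to 10479) than WT libraries (13592 to 15248). The label microglia was checked against 12 microglial markers, all of them present, whose summed level was 73606 to 86205 in KO libraries and 55891 to 75393 in WT libraries. Library 8 of the WT group stood apart from the other 6 in many of the values below. Pairs of those other 6 differed in recovered reads by a chi-square per gene of 3.91 to 6.98, and pairs of KO libraries by 33.6 to 65.8. This statistic grows with depth, which was larger in KO libraries. Pairs of WT library 8 with the other 6 differed by 53.0 to 72.7. At a like depth, WT libraries 2 and 3 (2045547 and 2038601 reads) differed by 4.01, and WT libraries 3 and 8 (2016972 reads) by 53.0. Whether the 6 WT libraries are technical replicates was not tested. Sex markers differed as well. In KO libraries 4 Y-linked genes had 0 reads and Xist was 1980 to 3292, and WT library 8 was like them (0 reads, Xist 3291). The other WT libraries had 11 to 36 reads of the Y-linked genes with an Xist level of 1127 to 1279, although all are labelled female. In the injected table the libraries numbered 5 (rAPOE, Xist 718; PBS, Xist 979) had 0 reads of those genes although labelled male.

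Apoe itself was close to absent from KO libraries. Its normalised count was 10.2, 0, 0 and 23.1 in KO libraries 1 to 4, from 18, 0, 0 and 52 reads, against 13595, 17163, 14964, 14051, 13196, 14032 and 1011 in WT libraries 1, 2, 3, 4, 6, 7 and 8. The groups did not overlap, and WT library 8 lay between the KO libraries and all other WT libraries. The mean was 8.32 ± 10.9 in KO libraries (SD, n = 4) and 12573 ± 5263 in WT libraries (SD, n = 7), a 1512-fold lower level. KO library 4 held 52 of the 70 KO reads of Apoe, and without it the level was 3692-fold lower in KO libraries. Differences are given on the log2(normalised count + 1) scale, where changes of low genes come out too small. Here the difference was −11.25 (SE 0.91, limma, Benjamini-Hochberg adjusted p = 1.58e-06), and an exact two-sided permutation test gave p = 0.00303, the smallest that its 330 splits allow. A tag at the 3′ end measures RNA that carries this end, and the labels do not say which part of the gene was replaced, so the tag is no check of that part.

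As a share of reads, Apoe took 0% to 0.00106% of KO libraries and 0.536% to 0.695% of WT libraries other than 8, where it ranked 9 to 14 among all genes. WT library 8 had 560 Apoe reads, 0.0278% of its reads (95% exact Clopper-Pearson interval 0.0255% to 0.0302%), at rank 255. In KO library 2, 0 of 4969287 reads allow a share of up to 6.04e-05% (3 reads). Reads carry no molecular identifiers, so these intervals and limits cover counting error only. Without library 8 the WT mean was 14500 ± 1432 (SD, n = 6), a spread of 9.87% of the mean.

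**Figure D1:**
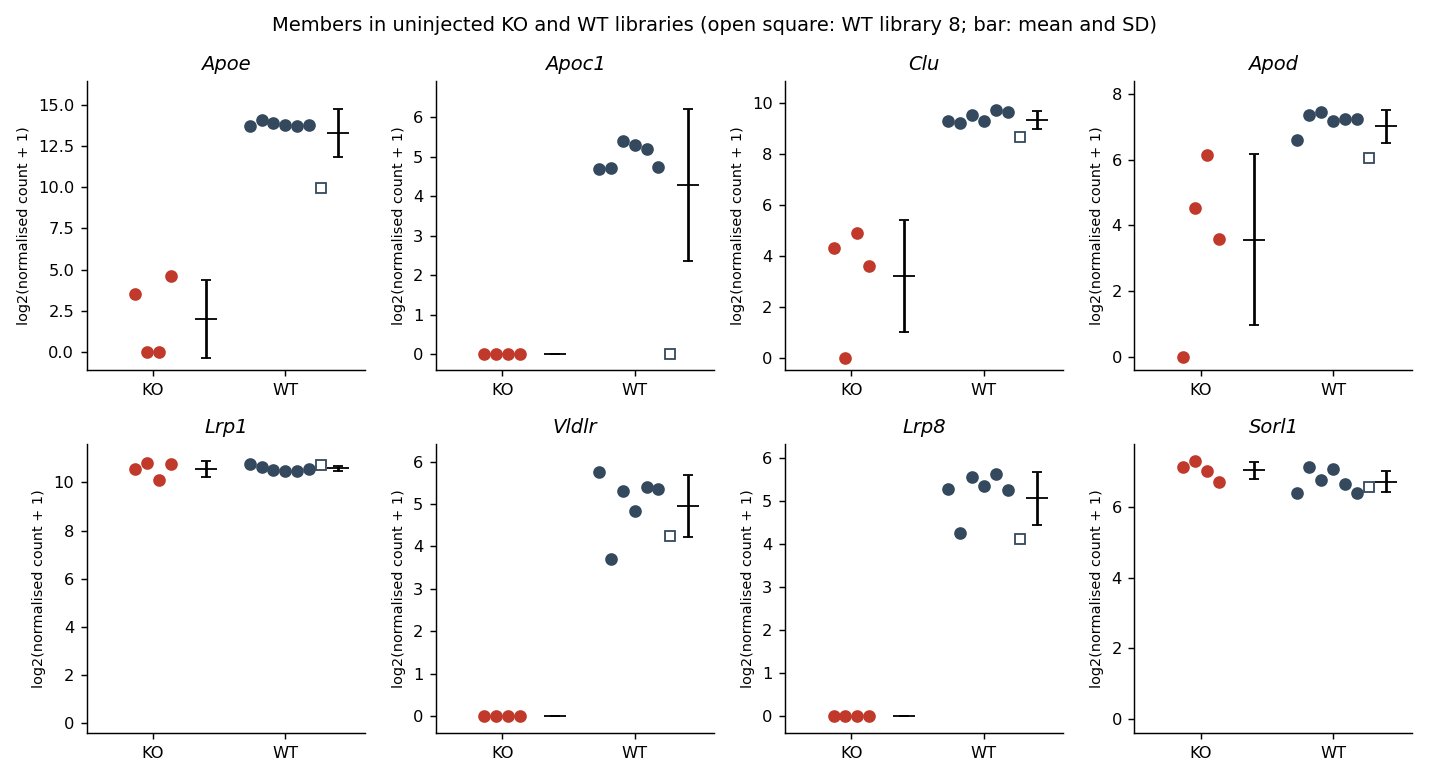
Normalised counts of the 8 genes as log2(normalised count + 1), 1 point a library, in 4 KO libraries and 7 WT libraries, with the mean and SD on that scale beside each group and WT library 8 as an open square. Apoe, Clu, Vldlr and Lrp8 were below every WT library in all KO libraries, Apoc1 was also at 0 in WT library 8, and Lrp1 and Sorl1 overlapped.

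Of the 8 genes, 6 were lower in KO libraries (Apoe, Apoc1, Clu, Apod, Vldlr and Lrp8), 0 were higher and 2 did not pass (Lrp1 and Sorl1). Over all 10401 genes tested, 25.0% passed, 19.8% as lower and 5.14% as higher. Apoc1, Vldlr and Lrp8 had no KO read and reached the filter (a mean of at least 10) through WT libraries alone. Like any tested gene without a KO read, they could only come out lower. The median difference was −4.62 over the 8 genes and −0.45 over all genes. Quantile normalisation moved the median of all genes to 0.09 and the calls to 920 higher and 1027 lower (8.85% and 9.87%), against 535 higher and 2061 lower, and left the median of the 8 genes at −2.22 with 5 of them lower. For 4 of the 8 genes all KO libraries lay below all WT libraries, as was the case for 10.6% of all genes tested.

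The secreted apolipoproteins other than Apoe were all lower in KO libraries. Clu, the clusterin gene, had 18.7, 0, 28.5 and 11.1 normalised counts in KO libraries 1 to 4, against 629, 583, 740, 624, 848, 798 and 401 in WT libraries 1, 2, 3, 4, 6, 7 and 8. Every KO library was below every WT library, with WT library 8 the lowest of its group. Clu averaged 14.6 ± 12.1 in KO libraries (SD, n = 4) and 660 ± 151 in WT libraries (SD, n = 7), 45.3-fold lower (difference −6.14, SE 0.67, limma adjusted p = 1.89e-05), and leaving out any 1 library kept the difference between −6.70 and −5.07 with an adjusted p of at most 9.76e-05.

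Apoc1, the neighbour of Apoe, had 0 reads in each of the 4 KO libraries. In WT libraries 1, 2, 3, 4, 6, 7 and 8 it had 24.6, 25.3, 40.8, 38.2, 35.5, 25.5 and 0 normalised counts, 181 reads in all. WT library 8 thus matched the KO libraries, and the groups overlapped in that library alone. Against the level of 3 reads over the KO group, Apoc1 was at least 77.6-fold lower in KO libraries than the WT mean of 27.1 ± 13.7 (SD, n = 7; difference −4.29, SE 0.92, limma adjusted p = 0.00357). This floor, here and below, covers counting error only and not the spread between libraries, so such a fold is no firm lower bound. Under quantile normalisation the difference of Apoc1 was −1.68 and the call was lost (adjusted p = 0.102). Without WT library 8 the difference was −5.00 (adjusted p = 1.44e-06).

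Apod, the lipocalin, varied more among KO libraries than any other member with reads in them except Apoe, with an SD of 119% of the mean, against 132% for Apoe, 82.7% for Clu, 20.6% for Lrp1 and 16.6% for Sorl1. It had 0, 22.3, 69.6 and 11.1 normalised counts in KO libraries 1 to 4, against 96.2, 164, 172, 144, 150, 149 and 65.0 in WT libraries 1, 2, 3, 4, 6, 7 and 8. KO library 3 was above WT library 8, so the groups overlapped by this pair. Apod was 5.22-fold lower in KO libraries (25.7 ± 30.6, SD, n = 4) than in WT libraries (134 ± 38.9, SD, n = 7). Without KO library 3, Apod was 12.1-fold lower (KO mean 11.1). The difference over all libraries was −3.44 (SE 0.82, limma adjusted p = 0.00698). Without KO library 1, the one at 0, it was −2.25 and without KO library 3 −4.30, both still past the threshold, while edgeR's quasi-likelihood test on the recovered reads left Apod short of it (−2.37, adjusted p = 0.0504).

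The signalling receptors Vldlr and Lrp8 were not detected in KO libraries. Vldlr, the very low density lipoprotein receptor, had 0 reads in each of the 4 KO libraries, against 53.1, 12.1, 38.4, 27.8, 41.4, 39.8 and 18.1 normalised counts in WT libraries 1, 2, 3, 4, 6, 7 and 8. Lrp8, the ApoE receptor 2, likewise had 0 reads in each of the 4 KO libraries, against 37.7, 18.1, 45.6, 39.4, 48.3, 36.7 and 16.2 in those WT libraries. WT libraries 2 and 8 were the lowest for both receptors, and WT library 2 was the highest for Apoe. With 3 reads over the KO group as the floor, Vldlr was at least 94.2-fold lower in KO libraries (WT mean 33.0 ± 14.4, SD, n = 7; difference −4.95, SE 0.57, limma adjusted p = 2.83e-05) and Lrp8 at least 98.9-fold lower (WT mean 34.6 ± 12.6, SD, n = 7; difference −5.05, SE 0.55, limma adjusted p = 1.89e-05).

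Zeros of this kind were common among lowly expressed genes of the KO libraries. Of the 2974 genes with a WT mean of 20 to 50, the range of Apoc1, Vldlr and Lrp8, 271 (9.11%) had no read in any of the 4 KO libraries and 1666 (56.0%) had none in at least 1 of them. At a WT mean of 200 to 1000, the range of Clu, 68 of 1598 genes (4.26%) had no read in at least 1 KO library, as Clu did, and 8 (0.501%) had none in any of them.

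Lrp1, the endocytic receptor, did not pass the test between KO and WT libraries. It had 1520, 1763, 1087 and 1751 normalised counts in KO libraries 1 to 4, against 1712, 1578, 1449, 1432, 1435, 1487 and 1677 in WT libraries 1, 2, 3, 4, 6, 7 and 8. In all, 3 KO libraries lay within or above the WT range, and KO library 3 lay below it. The mean was 1530 ± 316 in KO libraries (SD, n = 4) and 1538 ± 118 in WT libraries (SD, n = 7), with a difference of −0.03 (SE 0.14, limma adjusted p = 0.893). Its sign was positive without KO library 3 (0.13), without both KO library 3 and WT library 8 (0.15) and in edgeR (0.02), and over 22 alternatives the difference lay between −0.11 and 0.15 with none past the threshold.

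Sorl1, the sorting receptor, had 141, 156, 129 and 104 normalised counts in KO libraries 1 to 4, against 83.9, 141, 109, 134, 101, 83.7 and 93.9 in WT libraries 1, 2, 3, 4, 6, 7 and 8. KO libraries 1 and 2 lay above every WT library, library 1 by under 1 normalised count, and KO libraries 3 and 4 lay within the WT range. Sorl1 averaged 133 ± 22.0 in KO libraries (SD, n = 4) and 107 ± 23.1 in WT libraries (SD, n = 7), a difference of 0.32 (SE 0.23, limma adjusted p = 0.323), which was positive in all 22 alternatives and past the threshold in none of them.

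**Figure D2:**
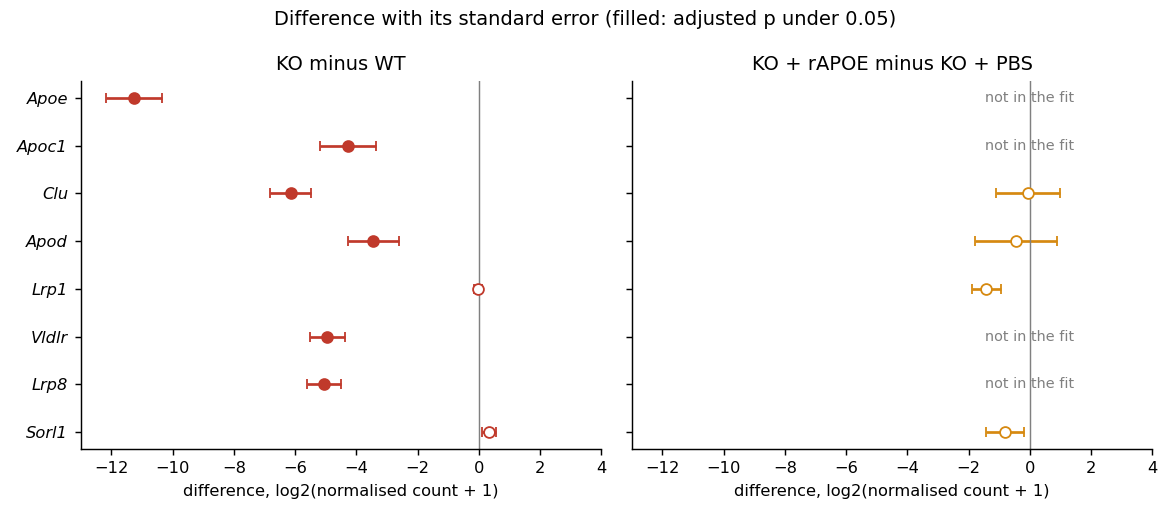
Difference of each gene on the log2(normalised count + 1) scale with its standard error, KO minus WT at left and KO + rAPOE minus KO + PBS at right, with filled points for a limma adjusted p under 0.05. At left 6 genes lie between −11.25 and −3.44 and Lrp1 and Sorl1 lie at −0.03 and 0.32; at right none of the 4 genes in the fit is filled, and Lrp1 lies at −1.43.

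Library 8 of the WT group differed from the other 6 WT libraries in Apoe more than in any other member with reads in it. The level was 1011 in library 8 and 14500 ± 1432 (SD, n = 6) in the others, 14.3-fold higher in the others, while their mean was 2.32-fold higher for Lrp8, 2.24-fold for Apod, 1.96-fold for Vldlr and 1.76-fold for Clu, and Apoc1 was at 0 in library 8. Lrp1 and Sorl1 in library 8 were within the range of the others. Without library 8, the same 6 members were lower in KO libraries and 0 were higher, with 30.6% of 10352 genes passing, 23.0% as lower.

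Markers of several other brain cell types were lower beside the 6 lower members, against 19.8% lower and 5.14% higher over all genes tested. Choroid plexus and ependymal markers summed to 440 to 872 in KO libraries and 23803 to 83644 in WT libraries, with 10 of 10 tested genes lower and Folr1, Sostdc1, Foxj1, Ccdc153, Tmem212 and Calml4 at 0 in all KO libraries. Astrocyte markers summed to 701 to 1254 in KO libraries and 1282 to 2053 in WT libraries, with 8 of 10 lower and Gfap and Aldh1l1 at 0 in all KO libraries. Neuronal markers summed to 15.1 to 108 in KO libraries and 128 to 1279 in WT libraries, with 9 of 11 lower and Map2, Rbfox3, Nefl, Nefm and Slc17a7 at 0 in all KO libraries. WT library 8 was the lowest WT library in each of these 3 sums (23803, 1282 and 128).

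Fibroblast and mural cell markers summed to 25.7 to 81.2 in KO libraries and 493 to 953 in WT libraries (3 of 5 lower; Col1a1, Col1a2, Pdgfrb, Pdgfra, Kcnj8 and Vtn at 0 in all KO libraries), and endothelial markers to 219 to 415 in KO libraries and 365 to 699 in WT libraries (3 of 9 lower; Tek at 0). Border and monocyte-derived macrophage markers summed to 105 to 316 in KO libraries and 283 to 2077 in WT libraries (5 of 11 lower; S100a4 and Plac8 at 0), oligodendrocyte markers to 3157 to 3340 in KO libraries and 1343 to 3919 in WT libraries (3 of 7 lower; Mog, Mobp, Cldn11, Mal, Ugt8a, Opalin and Ermn at 0), and neutrophil markers to 1767 to 6413 in KO libraries and 370 to 2990 in WT libraries (1 of 9 lower; Elane at 0). Without WT library 8, 5 oligodendrocyte and 5 endothelial markers were lower, with 23.0% of all genes lower. Of the 12 microglial markers, 6 were higher and 1 lower in KO libraries. Apoe, Clu and Apod are also made by astrocytes and other non-microglial brain cells. The part of these other cells in the members' differences was not tested, and fewer cells of a type and less RNA per cell cannot be told apart in such bulk libraries.

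**Figure D3:**
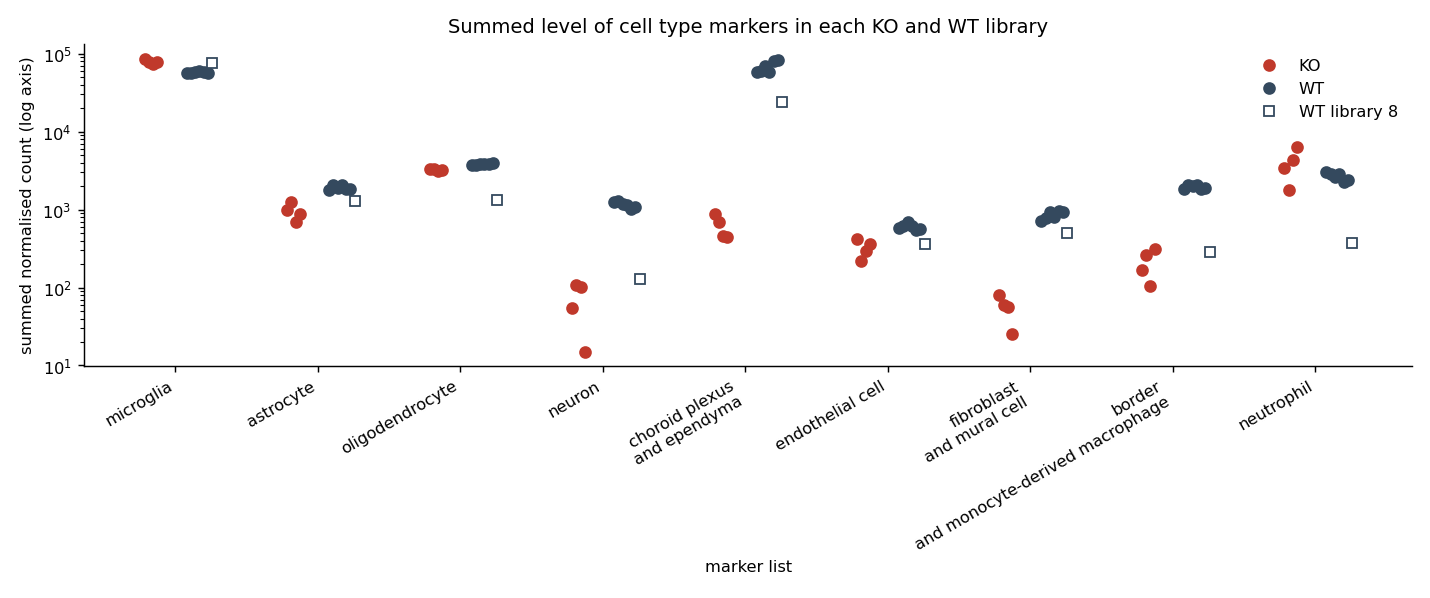
Summed normalised count of each cell type's markers on a log axis, 1 point a library, for 4 KO libraries left of 7 WT libraries within each list, with WT library 8 as an open square. The choroid plexus and ependyma sum lies between 440 and 872 in KO libraries and between 23803 and 83644 in WT libraries, and the microglial sum lies between 73606 and 86205 in KO libraries and between 55891 and 75393 in WT libraries.

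The genes whose pattern over the 11 uninjected libraries was most like a member's were found by the root mean square difference of their centred log2 values, among 9809 genes. Apoe was nearest to Fn1 (fibronectin; distance 1.71), Gda (guanine deaminase; 2.01) and Folr1 (folate receptor 1; 2.05), and none was close in absolute terms. Clu was nearest to Ncam1 (1.06), Enpp2 (autotaxin; 1.10) and Rnf152 (1.12), and Apod to Klf9 (0.42), Map1b (0.50) and Thbs1 (thrombospondin 1; 0.52). The 3 nearest to Apoc1 (Ramp3, Slc35f1 and Amph, distances 0.25 to 0.26), to Vldlr (Foxj1, Strip2 and Tmem53, 0.19 to 0.24) and to Lrp8 (Strip2, Vasn and Coro2b, 0.21 to 0.24) all had 0 reads in every KO library, as those members did. Lrp1 was nearest to Gnai2, Nuak1 and Ywhab (0.14 to 0.15) and Sorl1 to Tnfrsf1a, Atp6v1h and Cherp (0.17 to 0.20), none of which passed the test between KO and WT libraries. These likenesses are descriptions over 11 libraries that include the 2 groups.

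Other genes of the pathway were taken as lists, whose counts stand beside 19.8% lower and 5.14% higher over all genes tested. How many of all genes lay above every WT library in all KO libraries was not counted. Abcg1 and Abca1, exporters that lipidate ApoE, were higher, with Abcg1 at 379 ± 37.0 in KO libraries (SD, n = 4) and 171 ± 25.4 in WT libraries (SD, n = 7), 2.22-fold higher (limma adjusted p = 0.000156), and Abca1 at 837 ± 155 in KO libraries and 356 ± 186 in WT libraries, 2.35-fold higher (adjusted p = 0.00249). All 4 KO libraries were above all WT libraries for Abcg1 (345 to 432, against 144 to 208), and for Abca1 the groups overlapped (618 to 956 in KO libraries and 233 to 771 in WT libraries). Lipa (lysosomal acid lipase) was 1.67-fold higher (adjusted p = 0.0106) and Npc1 (lysosomal cholesterol transporter) 1.41-fold higher (adjusted p = 0.0127), both without overlap. The lipid transporter Abca7 and the lysosomal cholesterol carrier Npc2, of the same list, fell short of the threshold, and both were picked for mention with their values known (adjusted p = 0.431 for Abca7 and 0.524 for Npc2). Npc2 passed in 4 of 22 alternatives, those without WT library 8 and that with the library number as a block (lowest limma adjusted p = 0.000155). Abca7 passed in 0 of 20. In the same list Hspg2 (perlecan) had 0 reads in KO libraries and was at least 77.5-fold lower (adjusted p = 1.51e-05), and Lpl (lipoprotein lipase) was 22.6-fold lower (55.9 ± 39.6 in KO libraries, 1265 ± 567 in WT libraries, adjusted p = 0.00133). In all, 5 of the 16 genes tested were higher and 3 lower, with a median difference of −0.32, which became 0.05 under quantile normalisation. Over all genes 5.14% were higher and 19.8% lower, so the lower count was near that share.

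Among 14 other lipoprotein and sorting receptors tested, 6 were lower and 2 higher in KO libraries, with a median difference of −1.03. Over all genes, 19.8% were lower and 5.14% higher. Lsr, the lipolysis-stimulated lipoprotein receptor, had 0 reads in KO libraries and was at least 126-fold lower (limma adjusted p = 1.51e-05). The scavenger receptors Cd36 (11.3-fold, adjusted p = 0.00259) and Msr1 (15.4-fold, adjusted p = 0.00412) were lower, as was Ldlrad3 (26.1-fold, adjusted p = 0.0152). All KO reads of Cd36 and of Msr1 were in KO library 1 and those of Ldlrad3 in KO library 2, and without that library they were at least 131-fold, 272-fold and 55.3-fold lower against a floor of 3 reads over the KO group. The calls of Cd36 and Msr1 were lost in edgeR (adjusted p = 0.0901 for Cd36 and 0.0547 for Msr1), and that of Ldlrad3 under quantile normalisation (adjusted p = 0.285). The call of Msr1 was also lost in DESeq2 (adjusted p = 0.0571). Stab1, also a scavenger receptor, was 1.71-fold higher in KO libraries (547 ± 61.7, against 320 ± 136 in WT libraries, adjusted p = 0.0162).

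Of 25 ligands, chaperones, adaptors and regulators of these receptors tested, 7 were lower and 1 higher in KO libraries, with a median difference of −0.29. The shares over all genes were 19.8% lower and 5.14% higher. Without WT library 8, 11 of the list were lower and 2 higher, with 23.0% of all genes lower. Lrpap1, the chaperone that keeps ligands off Lrp1 in the secretory pathway, was 2.83-fold lower (84.1 ± 34.8 in KO libraries, 238 ± 45.7 in WT libraries, limma adjusted p = 0.00101), with all KO libraries (40.3 to 125) below all WT libraries (143 to 285). App, the amyloid precursor protein sorted by Sorl1, was 1.99-fold lower (600 ± 91.7 in KO libraries and 1192 ± 241 in WT libraries, adjusted p = 0.00158). The Lrp1 ligand A2m (alpha-2-macroglobulin) had 0 reads in KO libraries and was at least 147-fold lower (adjusted p = 6.01e-06), and Thbs1 was 5.86-fold lower (adjusted p = 0.00898). Apbb1, the adaptor Fe65, was 4.34-fold lower (adjusted p = 0.0173), with all its KO reads in KO library 3 (at least 78.3-fold lower without it). Its call was lost in edgeR (adjusted p = 0.356), DESeq2 (0.275) and quantile normalisation (0.153). It was also lost without KO library 1 (0.0507) or KO library 4 (0.0506).

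Among the other apolipoproteins, 10 of 27 listed genes were in the table and 2 passed the filter on low values, Saa3 (serum amyloid A3, an acute phase apolipoprotein) and Pltp (phospholipid transfer protein). Saa3 had 1.11 ± 2.22 normalised counts in KO libraries (SD, n = 4), from 10 reads, all in library 4, and 1060 ± 492 in WT libraries (SD, n = 7), 957-fold lower (limma adjusted p = 0.00228), or at least 2234-fold lower without KO library 4. Pltp was 6.29-fold lower (29.9 ± 45.1 in KO libraries and 188 ± 56.2 in WT libraries, adjusted p = 0.00413; edgeR adjusted p = 0.107), and 23.2-fold lower without KO library 4. For both, the groups overlapped.

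The neighbours of Apoe on chromosome 7 did not share its direction throughout. Of 8 tested, 3 were lower in KO libraries (Apoc1, Bcl3 and Clasrp), 1 was higher (Nectin2) and 4 did not pass (Tomm40, Relb, Gemin7 and Clptm1). Over all genes tested, 19.8% were lower and 5.14% higher. Nectin2, a cell adhesion molecule whose gene is 17455 bp from Apoe, was 2.39-fold higher (197 ± 44.5 in KO libraries, SD, n = 4, and 82.6 ± 14.8 in WT libraries, SD, n = 7, limma adjusted p = 0.00131), with no overlap. Tomm40, a mitochondrial import pore subunit 2124 bp from Apoe, had 23.1 ± 24.0 in KO libraries and 36.8 ± 11.6 in WT libraries (adjusted p = 0.182). Bcl3 was 9.91-fold lower (adjusted p = 0.00269; 22.2-fold without KO library 2) and Clasrp 3.19-fold lower (adjusted p = 0.0472), a call lost without KO library 1 (adjusted p = 0.0756) and without any 1 of WT libraries 1, 2, 3, 4, 6 and 7 (0.0642 to 0.0946). The call of Clasrp was also lost in edgeR (adjusted p = 0.209), in DESeq2 (0.0658), with the library number as a block (0.148) and at a pseudocount of 0.5 (0.0619). Under quantile normalisation none of the 3 lower neighbours passed.

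**Figure D4:**
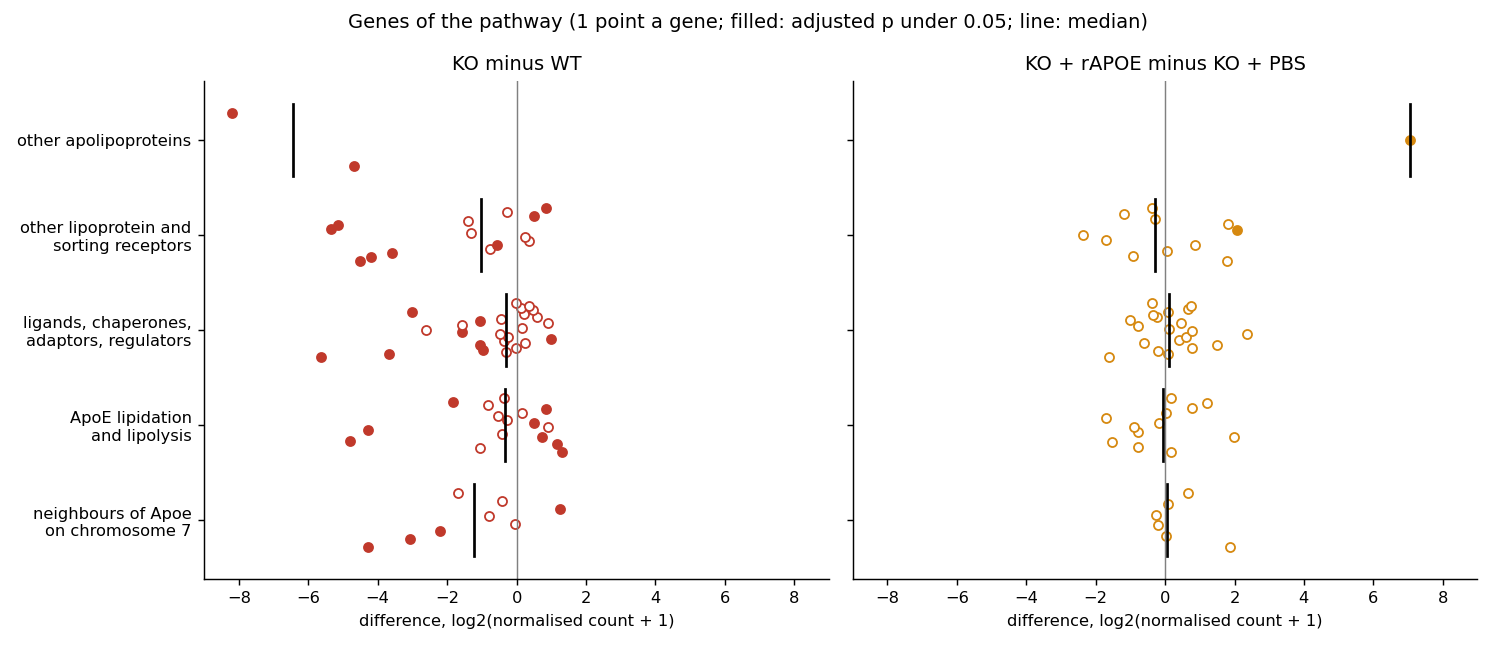
Difference of each tested gene of 5 pathway lists on the log2(normalised count + 1) scale, KO minus WT at left and KO + rAPOE minus KO + PBS at right, with filled points for a limma adjusted p under 0.05 and a line at each list's median. At left 5 of 16 lipidation genes are filled above 0, and at right the filled points are Saa3 at 7.05 and Msr1 at 2.08.

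The second comparison asked what rAPOE does to KO microglia. Apoe tags stayed at or near 0 after the injection, which delivered a protein. Apoe had 0, 0, 0, 8.54 and 0.777 normalised counts in rAPOE libraries 1 to 5, from 11 reads in library 4 and 1 read in library 5, against 0, 0, 0, 1.32 and 1.29 in PBS libraries 1 to 5, from 2 reads each in libraries 4 and 5. Library 4 of the rAPOE group was the highest, at 0.00102% of its reads, and the groups overlapped. An exact two-sided permutation test over 252 splits gave p = 0.881. Of the other members, Apoc1 had 1 read in rAPOE library 4 and 1 read in PBS library 1 (exact permutation p = 1). Lrp8 had 6.05 and 4.66 normalised counts in rAPOE libraries 2 and 5, 12 reads in all, and 0 in the other rAPOE libraries and in all 5 PBS libraries (exact permutation p = 0.444).

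Clu, Apod, Lrp1 and Sorl1 were the 4 of 7 members that passed the filter on low values, and 0 of them passed the test between rAPOE and PBS libraries. Over all 7066 genes tested, 0.481% passed, 0.368% as higher and 0.113% as lower. Over the 4 genes the median difference was −0.64, against −0.01 over all genes. No alternative tool called any of the 4 (edgeR and DESeq2), while Lrp1 had an unadjusted p = 0.00602, as 792 of the 7066 genes had one under 0.05.

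Lrp1 had the lowest p of the 4. Its normalised count was 35.4, 118, 164, 281 and 350 in rAPOE libraries 1 to 5, against 210, 331, 322, 560 and 786 in PBS libraries 1 to 5. The groups overlapped, with rAPOE libraries 4 and 5 above PBS library 1. Lrp1 averaged 190 ± 126 in rAPOE libraries (SD, n = 5) and 442 ± 231 in PBS libraries (SD, n = 5), a difference of −1.43 (SE 0.47, limma adjusted p = 0.225). It was negative in all 21 alternatives, between −1.74 and −0.92, and in the 10 that left out 1 library its adjusted p was 0.156 to 0.408. Of the 21, 2 passed, a fit with the class of the libraries, described next, and a fit with the library number as a block, whose values stand with the processing alternatives. Classes and numbers are balanced between the groups, so these 2 fits could not change the difference or its sign.

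The libraries of the injected table fell into 2 classes by the number of genes with reads, 10025 to 11342 genes in the libraries numbered 4 and 5 of both groups and 7601 to 8837 in the other 6. Lrp1 was higher in the first class in both groups. Within it Lrp1 averaged 315 in the 2 rAPOE libraries and 673 in the 2 PBS libraries (difference −1.08), and among the other libraries it averaged 106 in 3 rAPOE libraries and 288 in 3 PBS libraries (difference −1.66), without overlap in either class. In the first class Sorl1 (lower in rAPOE) and Clu (higher in rAPOE) did not overlap either, and both overlapped among the other libraries. The share of all genes without overlap within a class was not counted. With the class as a term in the fit, an alternative chosen after the data were seen, Lrp1 passed (limma adjusted p = 0.0376), as did 1.03% of all genes, 0.410% as lower. The difference stayed at −1.43 by design, since each class holds equally many libraries of both groups.

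Of the 12 microglial markers, 3 were lower in rAPOE libraries, 0 were higher and 9 did not pass, against 0.113% lower over all 7066 genes tested. The 3 did not overlap between the groups, and the share of all genes without overlap was not counted. The summed level of the 12 markers was 18914, 16486, 25533, 14202 and 11388 in rAPOE libraries 1 to 5, against 27352, 27641, 26952, 22883 and 26789 in PBS libraries 1 to 5. The sums overlapped, with rAPOE library 3 above PBS library 4. The 3 lower markers were the purinergic receptor gene P2ry12 (494 ± 360 in rAPOE libraries, 1428 ± 159 in PBS libraries, SD, n = 5 each, limma adjusted p = 0.00663), Gpr34 (419 ± 276 in rAPOE libraries, 1047 ± 112 in PBS libraries, adjusted p = 0.0325) and Siglech (154 ± 54.1 in rAPOE libraries, 394 ± 79.1 in PBS libraries, adjusted p = 0.0261). None of the tested genes of the other 8 marker lists passed; astrocyte markers, for example, summed to 132 to 311 in rAPOE libraries and 209 to 333 in PBS libraries, and choroid plexus and ependymal markers to 0 to 512 in rAPOE libraries and 0.83 to 267 in PBS libraries. The part of these markers and of the class of the libraries in the Lrp1 values was not tested beyond the values given.

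Sorl1 had 34.2, 18.2, 41.2, 24.1 and 20.99 normalised counts in rAPOE libraries 1 to 5, against 22.3, 207, 20.8, 43.5 and 56.0 in PBS libraries 1 to 5. PBS library 2 was the highest of all 10 libraries by far, and the others overlapped. The difference was −0.82 (SE 0.62, limma adjusted p = 0.661), and −0.29 without PBS library 2. Clu had 0, 16.1, 10.04, 24.1 and 15.5 in rAPOE libraries, against 5.79, 21.5, 4.80, 9.22 and 9.65 in PBS libraries (difference −0.06, SE 1.06, adjusted p = 0.991). Apod had 18.9, 0, 0, 8.54 and 28.8 in rAPOE libraries, against 10.8, 1.26, 49.6, 19.8 and 0 in PBS libraries (difference −0.46, SE 1.35, adjusted p = 0.932). With a standard error over 1 on the log2 scale, only changes of several fold in Clu or Apod could be seen at this depth.

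**Figure D5:**
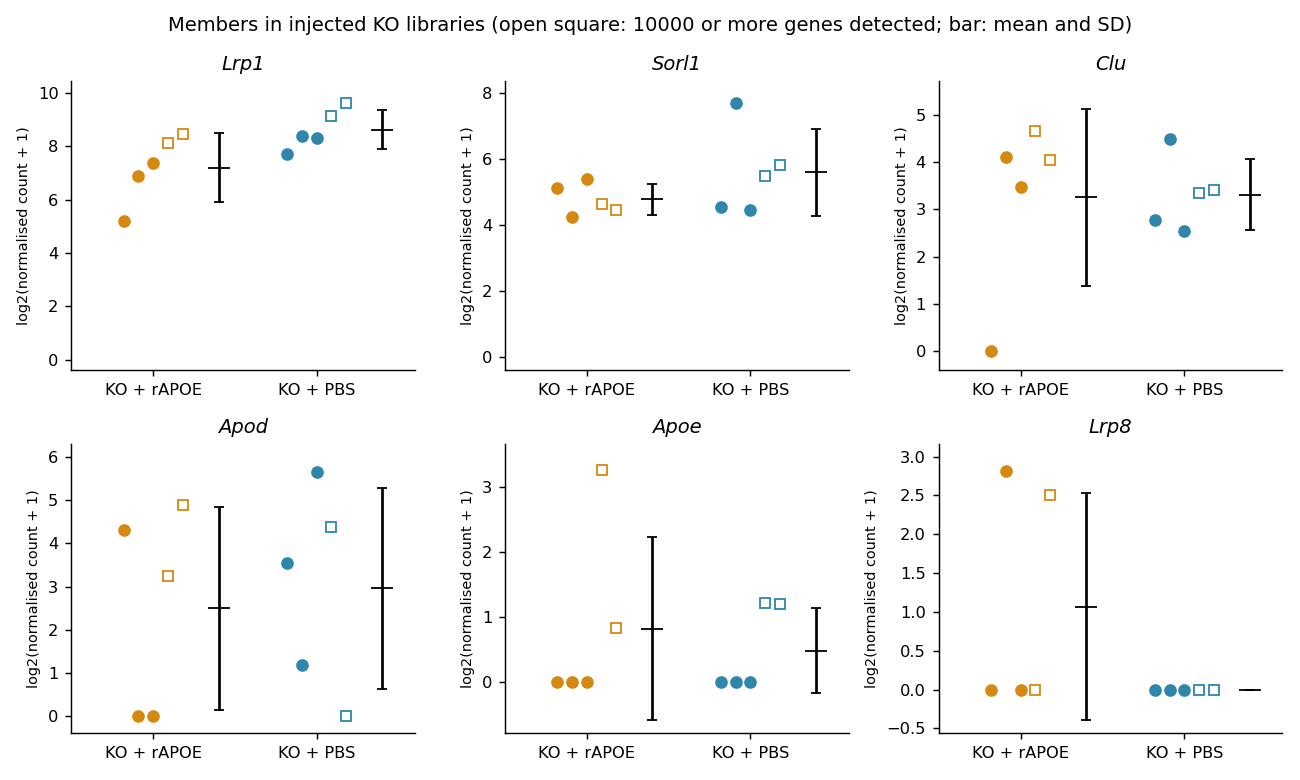
Normalised counts of 6 members as log2(normalised count + 1), 1 point a library, in 5 rAPOE and 5 PBS libraries, with the mean and SD on that scale beside each group and open squares for libraries with 10000 or more detected genes. Lrp1 lies between 35.4 and 350 normalised counts in rAPOE libraries and between 210 and 786 in PBS libraries, and all 6 genes overlap between the groups.

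Of the pathway lists, 2 genes passed between rAPOE and PBS libraries, both higher, where 0.368% of all genes tested were higher. Saa3 had 202 ± 117 normalised counts in rAPOE libraries and 0.418 ± 0.593 in PBS libraries (SD, n = 5 each), with no overlap (difference 7.05, SE 0.82, limma adjusted p = 7.68e-05). Its call was lost among genes with a mean of at least 50 alone (adjusted p = 0.0804). Msr1, the scavenger receptor A gene, had 441 ± 236 in rAPOE libraries and 91.7 ± 33.1 in PBS libraries, 4.82-fold higher with overlap (adjusted p = 0.0130), and its call was lost without rAPOE library 2 (adjusted p = 0.0599), without rAPOE library 5 (0.0666) and without both libraries numbered 5 (0.114). Both genes were lower in KO than in WT libraries in the main fit, a call that Msr1 lost in edgeR and DESeq2. None of the 12 tested lipidation genes, 20 ligands and adaptors or 6 neighbours of Apoe passed. Of the genes that differed between KO and WT libraries, this held for Abca1 (difference 0.18, adjusted p = 0.890), Abcg1 (−0.78, adjusted p = 0.620) and App (0.08, adjusted p = 0.956). Lpl was 4.20-fold higher in rAPOE libraries (240 ± 176, against 57.1 ± 42.8 in PBS libraries) without passing (adjusted p = 0.149).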

How the data were processed

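RNA of 21 microglia libraries was analysed in 2 tables. The submitters' processing notes name R 3.2.3, Picard 1.8.4, HTSeq and DESeq2 with genome build GRCm38.p3, and state no roles. Aligner, annotation and strand setting were not given in the sources used here, so reads of overlapping or antisense genes cannot be assigned with certainty. The deposited values are a normalised signal (reads over a library factor), made by the authors for each table apart. In each library they were whole multiples of a fixed step (100% within 0.01), so each library's reads were recovered as value divided by step. In the uninjected table, 22 date-named entries (0.0966% of the summed values) and 120 entries at 0 throughout were left out. Differences were fitted on log2(value + 1) with limma 3.58.1 (eBayes with trend) for genes whose mean reached 10, and p-values were Benjamini-Hochberg adjusted over all genes tested, with 0.05 as the threshold. Both tables' values proved to be normalised counts, so limma was the test and edgeR 4.0.16 and DESeq2 1.42.0 on recovered reads were alternatives, with other pseudocounts, filters and scalings, libraries left out in turn, a block on library number and, added after seeing the data, the class of detected genes and leaving out WT library 8 with KO library 3. Members with too few reads got exact permutation tests. At most 6 passing genes per pathway list are named, those with the smallest adjusted p; some of these are not reported here. Members and lists were chosen with earlier results of these data known. Symbols were found in GENCODE M21 for 99.3% of the uninjected and 99.9% of the injected table.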

Additional observations from a re-analysis of the deposited data

Results flagged for a closer look

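For each member and each group, the lowest and the highest library were checked for a gap to the rest (Dixon's test on the log2 scale). Of 26 member and group combinations that could be checked, 6 had a library apart. Chance gives about 1 in 20 for continuous values, a rate that does not hold where most libraries are at 0, as for Apoc1 in both injected groups, where any 1 read stands apart. Apoe in WT library 8 was low, at 1011 normalised counts, and Apoc1 in the same library was low, at 0. In rAPOE library 4, Apoe was high, at 8.54 normalised counts from 11 reads, and Apoc1 was high, at 0.776 from 1 read. Apoc1 was also high in PBS library 1, at 0.827 from 1 read. Clu was low in rAPOE library 1, at 0. The cause of these values was not tested.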

How the results depend on the processing

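In KO against WT, 6 of the 8 members were lower under every planned and added alternative except a filter at a mean of 50 (3, also without WT library 8), which only 5 members enter, quantile normalisation (5, without Apoc1) and edgeR (5, without Apod). The count over all genes was 2596, 1289 at a mean of 50, 1658 in edgeR and 2264 in DESeq2, and 2007 to 3169 with 1 library left out (3169 without WT library 8). Pathway genes passing were 29, 18 at a mean of 50, and 23 to 35 with 1 library left out. In rAPOE against PBS, the count of 34 genes became 64 at a pseudocount of 5, 67 under quantile normalisation, 114 in DESeq2, 24 in edgeR, 11 without both libraries numbered 5, 73 with the class of detected genes as a term, and 16 (without rAPOE library 5) to 74 (without rAPOE library 3) with 1 library left out; without rAPOE library 1 or 2 it was 22 or 20. Members passing were 0, and 1 (Lrp1) with the class term. Pathway genes passing were 2, 1 at a mean of 50, 5 in DESeq2, 4 with the class term, 1 without both libraries numbered 5, and 1 to 3 with 1 library left out. The causes of these shifts were not tested.

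Same-numbered libraries had correlated deviations of −0.03 to 0.02 between KO and WT. Between rAPOE and PBS the correlation was 0.19 for number 4, 0.11 for number 5 and at most 0.02 for numbers 1 to 3, and rAPOE library 5 correlated most with PBS library 4 (0.14), so not every pair deviated together and the numbers were not taken as pairs. With the number as a block, 1823 genes passed between KO and WT, with the same count of 6 members and 23 pathway genes (Thbs1, Lipa and Npc1 among those not passing), and 52 between rAPOE and PBS, with 1 member (Lrp1, difference −1.43, adjusted p = 0.0201, lower in rAPOE in 5 of 5 same-numbered pairs) and 3 pathway genes. Counts of 0 reads, and Apoc1, Apoe and Lrp8 in the injected table, are limited by depth and by the spread between libraries.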
